A study of Mus musculus with 26 samples.

Results

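Rods sorted from retinas of saline-injected rd10 mice were compared with whole retinas of other saline-injected rd10 mice. The aim was to find which transcripts the sorted cells hold above and below whole-retina levels. The libraries were chosen by the group given in their labels, 2 of sorted rods and 12 of whole retinas, which makes 14 of the 26 libraries of the series. All mice carried the rd10 mutation of Pde6b and were injected from PN9 and collected at PN24. The rods came from a line that is homozygous for rd10 and for an Nrl-EGFP transgene, in which the Nrl promoter drives green fluorescent protein in rods, and they were isolated by flow cytometry of dissociated retinas. The retinas came from rd10 mice without the transgene and served as controls of the Romidepsin (3 libraries), UNC0642 (2), DZNep (4) and UNC1999 (3) experiments. The labels call all 12 saline controls, while the methods give UNC1999 a diluent of its own. Mice of both sexes were used, and whether a library pools animals is not stated, so p-values measure the spread between these libraries only.

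The methods describe SMART-Seq libraries, which amplify full-length cDNA from very little RNA, for the sorted rods and refer to earlier work for the others. The labels give 1 stranded Illumina protocol for every sample. Dissociation, sorting, the transgenic line, the library kit as the methods describe it and the prefix of the library names all separate the same 2 libraries from the same 12. Their parts in any difference described here cannot be told apart. Between 14860171 and 25950244 reads were counted on genes per retina library, and 7289460 and 17371857 in the rod libraries. The values are raw read counts per Ensembl gene, shown as counts per 1000000 reads (CPM) scaled with edgeR's TMM factors. A gene was called when the adjusted p of edgeR's quasi-likelihood test was under 0.05 and the log2 fold change was beyond 1 in either direction. Fold changes are rods over retinas throughout, on the log2 scale, and the rod values are given in the order of replicates 1 and 2. The value after ± is the absolute log2 fold change divided by the square root of the F statistic of the test. It approximates a standard error and may understate the error of genes with few counts in rods. The median retina is the middle of the 12 libraries, and the median log2 fold change of all genes tested was -0.28.

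Rods are the dim-light photoreceptors of the retina. In their outer segment, the light-activated visual pigment turns on transducin, transducin turns on a cGMP phosphodiesterase, and the fall in cGMP closes a cation channel. Recovery depends on a receptor kinase, arrestin, an RGS9 complex and calcium-sensitive guanylate cyclases. In rd10 mice the catalytic subunit encoded by Pde6b is defective, and rods die over the first postnatal weeks while cones, inner neurons and glia remain longer.

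Of 17829 genes tested, 4527 (25.4%) were called higher in sorted rods and 6849 (38.4%) were called lower. With so much of the transcriptome called, a list is read here against these shares. Calls in either direction made up 63.8% of genes. Both rod values lay above every retina in 35.4% of genes and below every retina in 42.6%, and 62% were called with the groups apart. Lists of rod function had positive medians, lists of inner retinal, glial, vascular and pigment cells had negative ones, and the cone list lay near 0.

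**Figure D1:**
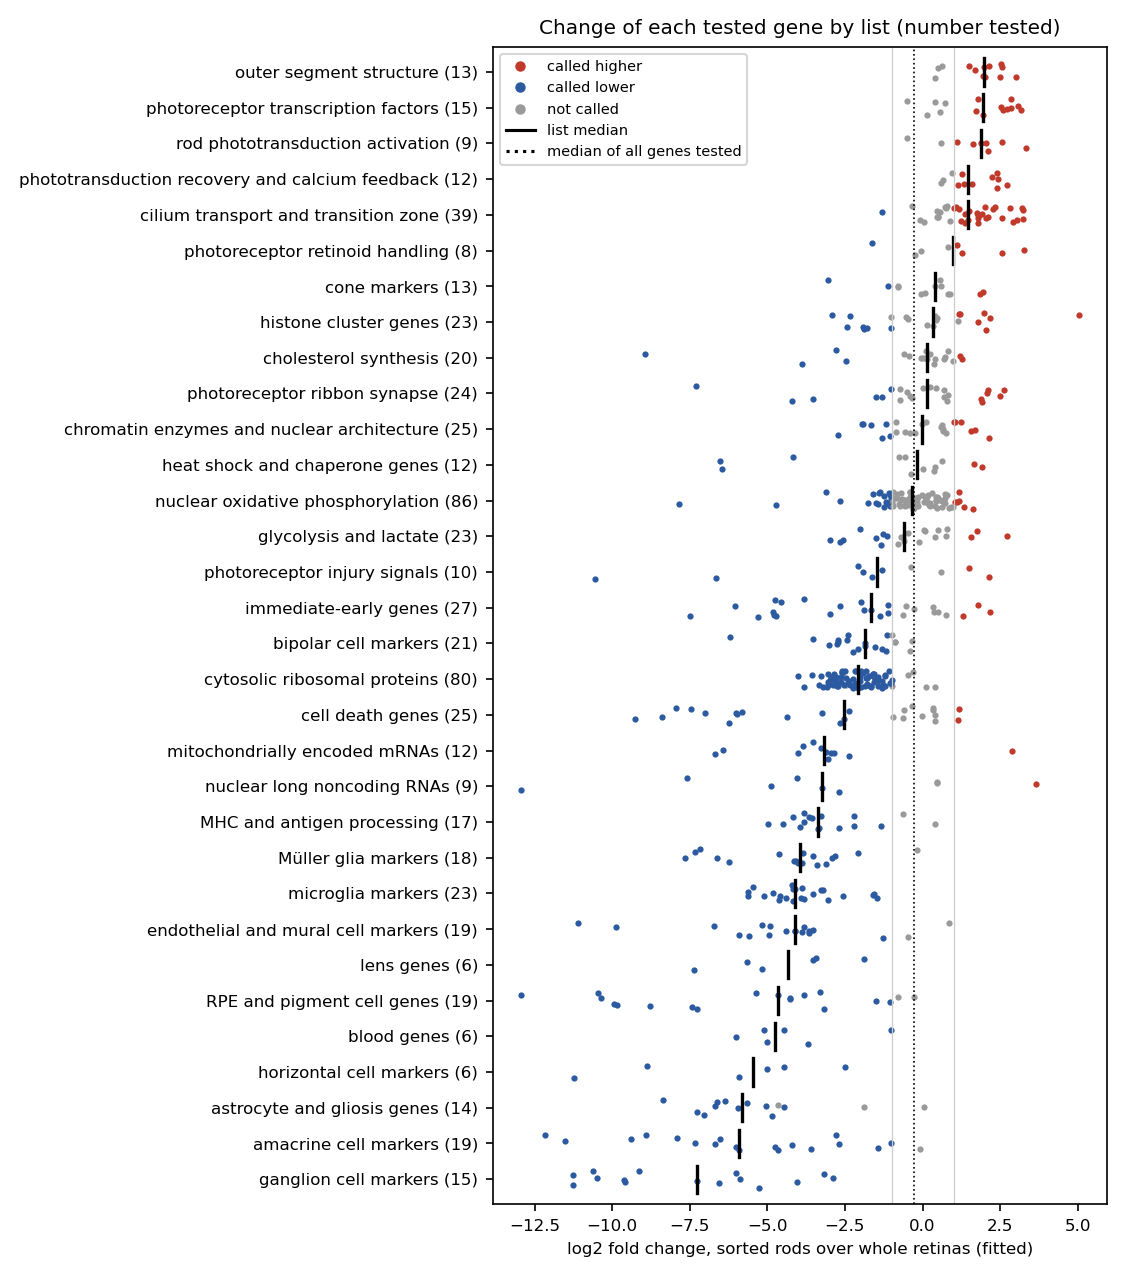
Fitted log2 fold change (sorted rods over whole retinas) of every tested gene in each list, with the number tested in parentheses; bars mark list medians and the dotted line the median of all genes. Medians of the lists drawn run from 1.99 for outer segment structure down to -7.27 for ganglion cell markers, where fitted values of genes with no count in rods depend on the prior count.

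Genes of the rod light response were among the most abundant transcripts of the sorted cells. Of 9 genes for activation, 7 were called higher and none lower, with a median log2 fold change of 1.89. Their summed level was 44342 and 69485 CPM in the rod libraries, against 7098 to 34491 CPM in the retinas. Both UNC0642-experiment retinas were the lowest, at 7098 and 7226 CPM, and every other retina was at 12777 CPM or above.

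Gnat1, rod transducin alpha, stood at 12286 and 21569 CPM in rods and had a lowest of 1479, a median of 4118 and a highest of 7467 CPM in the retinas. The groups do not overlap, and the log2 fold change was 2.03 ± 0.40 (adjusted p = 0.000176). Its partners Gnb1 and Gngt1, the transducin beta and gamma subunits, rose by 1.63 and 2.55. With offsets for transcript length and GC content, Gngt1 stood at 0.64 and was not called.

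The subunits of the phosphodiesterase did not move together. Pde6b, the beta subunit gene that carries the rd10 mutation, was at 6467 and 6908 CPM in rods and at a lowest of 299, a median of 662 and a highest of 1208 CPM in retinas. Both rod libraries lie more than 5-fold above the highest retina, and the log2 fold change of 3.33 ± 0.31 (adjusted p = 3.53e-08) was the highest among the 9 activation genes. Pde6a, the alpha subunit, had 661 and 912 CPM in rods and 549 to 1907 CPM (median 1144) in retinas. Its rod values lie inside the retina range and it was not called (-0.52 ± 0.36, adjusted p = 0.191). Per kilobase of annotated exon, mean Pde6b was 1331 CPM in rods and 133 CPM in retinas, whereas mean Pde6a was 174 and 249 CPM. The inhibitory gamma subunit Pde6g rose (1.89 ± 0.36). Of the channel genes, Cnga1 rose by 2.11 ± 0.32 and Cngb1 stayed under the fold threshold (0.59 ± 0.26, adjusted p = 0.0484), though with offsets for length and GC content it was called at 1.30. Pde6a overlaps another annotated gene on the opposite strand, as do 2 of the 9 activation genes in all, and Pde6b overlaps none.

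Of 12 recovery genes tested, 9 were called higher and none lower (median 1.47), and 11 had both rod values above all retinas. Sag, encoding arrestin, reached 7946 and 15923 CPM against 1082 to 2982 CPM (median 2247), a log2 fold change of 2.44 ± 0.29 (adjusted p = 8.38e-07). Guca1b, a guanylate cyclase activator, had 2185 and 2350.1 CPM against 146 to 640.5 CPM (median 355) and rose by 2.71 ± 0.34. Rgs9bp, which anchors RGS9, rose by 2.41 ± 0.28, while Rgs9 itself overlapped the retinas and was not called (0.67 ± 0.28). The kinase gene Grk1 (0.96 ± 0.26) and the cyclase gene Gucy2e (0.58 ± 0.24) lay above every retina but stayed under the fold threshold, though with offsets for length and GC content both were called, at 1.81 and 1.86. The other cyclase, Gucy2f, was called at 2.24 ± 0.30.

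**Figure D2:**
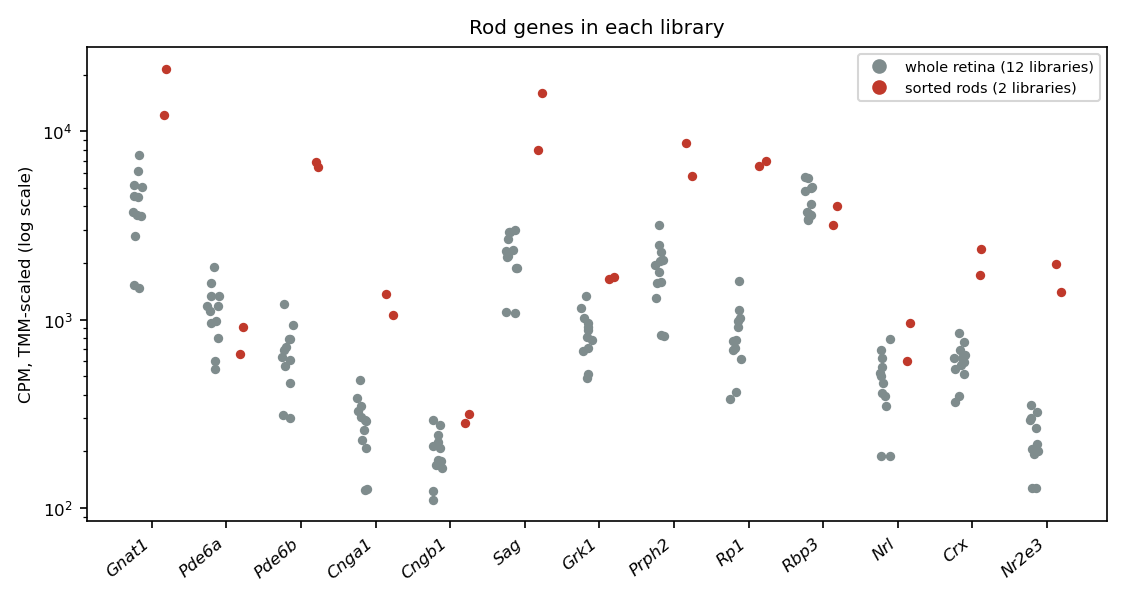
CPM of 13 rod genes in each library on a log axis, retinas in grey and sorted rods in red, 1 point per library. Pde6b, Rp1 and Nr2e3 stand well above every retina, whereas Pde6a, Rbp3 and Nrl overlap the retinas.

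In the list of outer segment structure, 10 of 13 genes were called higher (median 1.99). Rp1, a protein of the outer segment microtubules, had 6945 and 6518 CPM in rods and a lowest of 379.8, a median of 777 and a highest of 1603 CPM in retinas. Both rod libraries exceed the highest retina more than 4-fold, and the log2 fold change was 3.01 ± 0.31 (adjusted p = 1.41e-07). Prph2 and Rom1, the tetraspanins of the disc rim, rose by 1.99 ± 0.33 and 1.996 ± 0.28 without overlap. Fscn2 (2.54 ± 0.31), Atp8a2 (2.55 ± 0.20) and the kinase gene Mak (2.49 ± 0.22) rose as well. Cdhr1, a cadherin at the disc base, overlapped the retinas and was not called (0.51 ± 0.26).

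Among 8 genes for handling of retinoids in photoreceptors, 4 were called higher and 1 lower. Rdh12, a retinol dehydrogenase of the inner segment, rose from a median of 164 CPM to 1491 and 1727 CPM (3.26 ± 0.26). Dhrs3 (2.57 ± 0.12) and Abca4, the outer segment flippase (1.27 ± 0.25), rose too. Rdh8, the outer segment retinol dehydrogenase, was lower, at 21.4 and 13.9 CPM against 31.2 to 81.2 CPM (median 55.6) (-1.63 ± 0.32, adjusted p = 0.000222). Rbp3, the secreted retinoid-binding protein, had 3178 and 4032 CPM and 3405 to 5723 CPM (median 3926) and was not called (-0.26 ± 0.22).

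Of 15 photoreceptor transcription factors tested, 10 were called higher and none lower (median 1.96). Nr2e3, which represses cone genes in rods, had 1399.6 and 1979 CPM in rods and a lowest of 128, a median of 213 and a highest of 354 CPM in retinas, and rose by 2.84 ± 0.26 (adjusted p = 2.94e-08). Crx rose by 1.78 ± 0.21, Neurod1 by 3.07 ± 0.17, Mef2c by 3.17 ± 0.25 and Prdm1 by 2.85 ± 0.16. Nrl, the rod determinant whose promoter drives the sorted reporter, was at 604 and 956 CPM against 188 to 790.0 CPM (median 481). Rod library 1 lies inside the range of the retinas, and Nrl was not called (0.72 ± 0.39, adjusted p = 0.0958). Esrrb, a receptor that supports rod survival, was not called either (-0.51 ± 0.43). Genes of the connecting cilium, which carries cargo to the outer segment, were called higher in 26 of 39 cases and lower in 1 (median 1.46). Rpgrip1, a transition zone scaffold, had 2303 and 1342 CPM against 118 to 278 CPM (median 174), a log2 fold change of 3.24 ± 0.24. Arl13b (3.25 ± 0.19), Fam161a (3.22 ± 0.19), Bbs7 (3.03 ± 0.17), Rpgr (2.81 ± 0.15) and Cep290 (2.27 ± 0.17) rose, and the 1 gene called lower was Whrn (-1.31 ± 0.14), a scaffold mutated in Usher syndrome. With offsets for transcript length and GC content, Whrn turned to 0.55 and was not called.

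Promoters were read for genes of these lists, because CRX and NRL, the factors that bind rod promoters, were measured above. RefSeq windows (GRCm38.p6, 250 bases before to 50 after the start) were given for 30 of the 42 genes for phototransduction, outer segment structure and retinoid handling, with 35 windows in all. The letters TAATCC (core site of CRX) stood on either strand in 11 of the 35 windows (31.4%). The share was 7.06% of all 32851 windows and 5.83% of the 14299 windows of genes tested. It was 6.95% of windows of genes called higher and 5.15% of those called lower. TGCTGA (part of the NRL site) stood in 8 of 35 (22.9%), against 19.5% of all windows and 16.2% of windows of genes tested. It stood in 16.2% of windows of genes called higher and 17.1% of those called lower. All windows are 300 bases long, and the 2 strings cannot overlap each other. The 5 windows below belong to genes described here, and the capitals mark these letters on either strand. Each of the 5 holds a match, so they do not stand for the windows without one. They are Sag on the plus strand at chr1:87803430-87803729, Cnga1 on the minus strand at chr5:72642703-72643002, Gucy2e on the minus strand at chr11:69236973-69237272, Pde6b on the plus strand at chr5:108388123-108388422 and Rbp3 on the plus strand at chr14:33953753-33954052.
Sag: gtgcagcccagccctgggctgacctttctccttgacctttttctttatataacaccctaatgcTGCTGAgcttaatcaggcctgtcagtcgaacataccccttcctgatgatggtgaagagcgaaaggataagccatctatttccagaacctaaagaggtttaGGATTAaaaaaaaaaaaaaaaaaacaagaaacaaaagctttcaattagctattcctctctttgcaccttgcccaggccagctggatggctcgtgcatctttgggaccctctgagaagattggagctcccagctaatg
Cnga1: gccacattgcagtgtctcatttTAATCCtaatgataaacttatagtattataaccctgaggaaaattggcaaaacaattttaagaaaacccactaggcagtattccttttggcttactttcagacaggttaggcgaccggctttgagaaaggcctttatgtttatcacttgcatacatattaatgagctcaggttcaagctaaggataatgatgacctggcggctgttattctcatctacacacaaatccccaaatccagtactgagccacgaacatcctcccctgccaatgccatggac
Gucy2e: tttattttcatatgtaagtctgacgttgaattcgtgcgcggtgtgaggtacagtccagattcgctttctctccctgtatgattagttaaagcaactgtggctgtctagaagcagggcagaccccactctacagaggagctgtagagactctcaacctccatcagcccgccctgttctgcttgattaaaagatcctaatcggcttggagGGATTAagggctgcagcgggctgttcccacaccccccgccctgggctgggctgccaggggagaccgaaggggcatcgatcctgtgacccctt
Pde6b: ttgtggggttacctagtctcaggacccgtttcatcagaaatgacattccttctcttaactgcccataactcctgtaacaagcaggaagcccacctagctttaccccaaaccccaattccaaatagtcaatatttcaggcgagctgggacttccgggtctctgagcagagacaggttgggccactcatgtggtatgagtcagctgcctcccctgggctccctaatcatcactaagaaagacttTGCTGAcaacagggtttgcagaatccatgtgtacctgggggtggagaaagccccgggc
Rbp3: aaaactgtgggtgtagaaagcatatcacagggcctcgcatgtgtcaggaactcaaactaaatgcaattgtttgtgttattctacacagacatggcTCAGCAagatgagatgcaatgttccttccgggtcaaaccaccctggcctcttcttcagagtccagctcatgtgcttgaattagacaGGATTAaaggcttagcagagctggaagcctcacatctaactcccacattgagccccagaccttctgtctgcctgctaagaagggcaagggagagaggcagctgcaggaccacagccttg
Of these genes, Sag, with 1 match of each string, rose by 2.44, and Rbp3, also with 1 of each, was not called. Cnga1 and Gucy2e hold 1 TAATCC each, and Pde6b holds 1 TGCTGA. A match is a string of letters and was not tested as a binding site.

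Markers of the other retinal cell classes, cones apart, were lower in sorted rods, to different degrees. In bulk RNA, fewer cells of a type and less RNA per cell cannot be told apart, so the values below are levels of transcripts. Summed ganglion cell markers reached 2.95% of the mean retina level, from 2187 to 2881 CPM in retinas down to 78.6 and 74.3 CPM in rods. Horizontal cell markers stood at 8.17%, Müller glia markers at 9.29%, amacrine cell markers at 12.5% and microglia markers at 12.1% of the mean retina. Sums weigh abundant members most, and list medians give another order. The median log2 fold change was -5.91 for amacrine and -3.96 for Müller glia markers. Endothelial and mural markers were at 7.16%, pigment cell genes at 9.20% and blood genes at 4.70%. Bipolar cell markers kept 31.4%, and cone markers were at 176%.

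**Figure D3:**
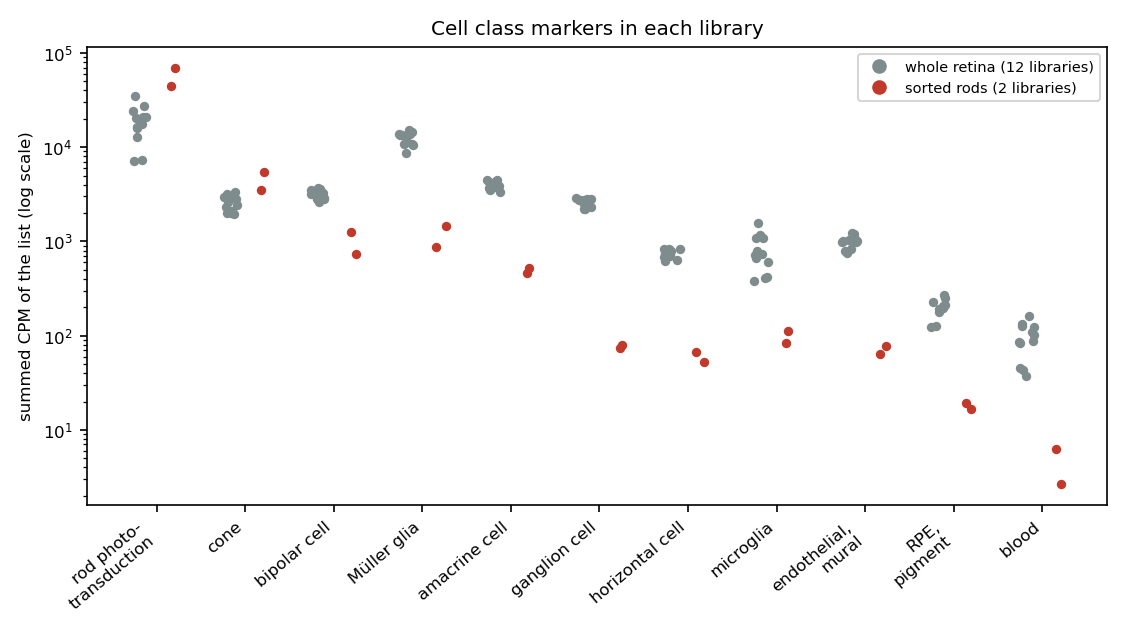
Summed CPM of the marker list of each cell class in each library on a log axis, retinas in grey and sorted rods in red, 1 point per library. The rod libraries lie above every retina for rod phototransduction and cone markers and below every retina for the 9 other classes.

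All 15 ganglion cell markers tested were called lower. Thy1, a surface protein of ganglion cells, fell from 269 to 426 CPM (median 327) to 0.420 and 0.452 CPM (-9.62 ± 0.32), and Sncg from a median of 136 to 0.280 and 0.129 CPM. Pou4f2, a transcription factor of ganglion cells, had no count in either rod library and 11.2 to 21.5 CPM (median 15.4) in retinas, at least 119-fold lower against a floor of 3 counts over both rod libraries. The list median of -7.27 becomes -6.23 with the 4 genes at 0 set to that bound. Of 19 amacrine markers 18 were called lower, as were all 6 horizontal cell markers. Slc32a1, the vesicular GABA transporter, had 0.140 and 0.388 CPM against 181 to 241 CPM (median 204), and Chat, the acetylcholine enzyme of starburst cells, had no count in rods (at least 221-fold lower). Gjd2, connexin 36, was the amacrine marker that was not called, at 137 and 125 CPM against 113 to 155 CPM (median 138) (-0.0711 ± 0.12). It is 1 of 8 amacrine markers, of the 19 tested, that overlap a gene on the opposite strand. The part of such overlaps in these values was not tested.

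Transcripts of Müller glia and microglia markers were low but measurable. Of 18 Müller markers 17 were called lower. Glul, glutamine synthetase, had 26.1 and 45.3 CPM against a lowest of 939, a median of 3004 and a highest of 3955 CPM (-6.23 ± 0.77), and Rlbp1, the glial retinaldehyde carrier, had 32.5 and 46.5 CPM against 362 to 718 CPM (median 604). Car2 was not called (-0.18 ± 0.15). Of 14 astrocyte and gliosis genes 11 were called lower. Gfap, the filament protein of reactive glia, fell from 167 to 941 CPM (median 367) to 5.04 and 3.04 CPM (-6.70 ± 0.91). All 23 microglia markers were called lower, and 3 of the 23 overlap a gene on the opposite strand. Cx3cr1 was at 0.981 and 1.55 CPM against 15.9 to 47.1 CPM (median 33.4) and C1qa at 1.12 and 2.52 CPM against 28.9 to 100.4 CPM (median 52.6). Csf1r, the microglial survival receptor, had 19.1 and 29.5 CPM against 36.3 to 113 CPM (median 64.1) (-1.47 ± 0.44), overlaps a gene on the opposite strand and was not called without rod library 1 (-1.24), with only the UNC1999-experiment retinas (-0.85) or with offsets for length and GC content (-0.56). Of 19 vascular markers 17 were called lower, among them Kdr (-4.12 ± 0.20) and Rgs5 (-5.61 ± 0.28). Pecam1, at 15.4 and 6.78 CPM against 8.40 to 20.02 CPM (median 15.5), was not. The pigment cell genes Rpe65 and Ttr had no count in either rod library, at least 44.3-fold and 379.7-fold lower. All 6 lens genes and all 6 blood genes tested were called lower.

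Of 21 bipolar cell markers, 16 were called lower and none higher (median -1.87). Trpm1, the cation channel of ON bipolar cells, fell from 288 to 426 CPM (median 375) to 59.3 and 95.9 CPM (-2.23 ± 0.20). Grm6, the glutamate receptor that controls it, fell (-2.08 ± 0.26), as did Prkca, the kinase of rod bipolar cells (-1.13 ± 0.20, or -0.51 and not called with offsets for length and GC content). Cabp5 (47.3 and 154 CPM against 99.1 to 161 CPM (median 132)) and Scgn (46.1 and 96.2 CPM against 69.9 to 117 CPM (median 95.04)) overlapped the retinas and were not called, though with offsets for length and GC content both were called lower, at -1.31 and -1.15. In Cabp5, Gng13, Nyx, Tacr3 and Bhlhe23 rod library 2 held over 2-fold more than rod library 1.

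Of 13 cone markers tested, 2 were called higher and 2 lower (median 0.41). Opn1sw, the short-wavelength cone opsin, had 1125 and 2254 CPM in rods against a lowest of 135, a median of 507 and a highest of 881 CPM in retinas. Both rod libraries lie above every retina (1.85 ± 0.58, adjusted p = 0.0074). Thrb, the thyroid hormone receptor of green cones, rose by 1.93 ± 0.16. Cone arrestin Arr3 (181 and 189 CPM against 65.9 to 315 CPM (median 205)), the cone phosphodiesterase gene Pde6c (141 and 219 CPM against 129.9 to 230.3 CPM (median 168)) and Opn1mw (226 and 420.1 CPM against 79.6 to 247 CPM (median 216)) were not called. Gngt2 (-1.10 ± 0.35) and Slc24a2 (-3.05 ± 0.20), the cone gamma subunit and exchanger, were lower. Per kilobase of annotated exon, mean Opn1sw in rods was 661 CPM, and mean Gnat1 was 7677 CPM. Opn1sw is 1 of 4 cone markers, of the 13 tested, that overlap a gene on the opposite strand. Without rod library 2 it stood at 1.24 and with offsets for length and GC content at 1.27, and in neither case was it called. With only the UNC1999-experiment retinas Gngt2 stood at -0.70, and without rod library 1 at -0.62, and it was not called. The part of cones in the sorted cells in these values was not tested.

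Of 24 genes of the photoreceptor ribbon synapse, 6 were called higher and 6 lower (median 0.13), and with offsets for length and GC content 10 and 5 (median 0.53). Rims1, an active zone scaffold, had 1.12 and 1.23 CPM against a lowest of 148, a median of 187 and a highest of 225 CPM (-7.31 ± 0.27, adjusted p = 5.88e-13). Its paralogue Rims2 overlapped the retinas at 146 and 165 CPM against 85.2 to 179 CPM (median 135) (0.25 ± 0.19). Bassoon (Bsn) fell to 20.2 and 21.3 CPM from 172 to 289 CPM (median 267) (-3.54 ± 0.29). With offsets for length and GC content Bsn stood at -1.37 and was still called. Pclo, the related piccolo, did not pass (-0.51 ± 0.30). Of the complexins, Cplx4, found in photoreceptors, rose to 1374 and 1647 CPM from 159 to 429.6 CPM (median 261) (2.51 ± 0.24), and Cplx3, found also in amacrine cells, fell to 217 and 397 CPM from 506 to 726 CPM (median 624) (-1.01 ± 0.19), a call that was lost at -0.68 without rod library 1 and at -0.99 without Romidepsin-experiment retina 1 or 3 or any of the 4 DZNep-experiment retinas. Cacna1f, the calcium channel of the rod terminal (2.11 ± 0.23), and Cabp4, its regulator (1.87 ± 0.24), rose. Slc17a7, the vesicular glutamate transporter, fell (-1.32 ± 0.27, or -0.62 and not called with offsets for length and GC content). Elfn2 fell to 3.64 and 7.495 CPM (-4.20 ± 0.26, or -2.57 and still called with the same offsets). Cacna1f and Dmd were higher in rod library 1 than in library 2, at 1101 and 605 and 791 and 468 CPM.

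Of 23 genes of glycolysis and lactate transport, 3 were called higher and 8 lower (median -0.59). Over all genes tested the shares were 25.4% and 38.4%, so the list as a whole does not stand out. Some isoform pairs picked from it moved in opposite directions, in a comparison where 63.8% of all genes were called. Ldha, the lactate dehydrogenase subunit that favours lactate, had 2331 and 3738 CPM against 718 to 1111 CPM (median 881) (1.76 ± 0.14), and Ldhb had 35.3 and 65.1 CPM against 177 to 252 CPM (median 200.3) (-2.004 ± 0.19). The groups do not overlap for either gene. Pfkfb2, which sets the level of the activator of phosphofructokinase, rose to 1255 and 908 CPM from 113 to 238 CPM (median 159) (2.73 ± 0.19), and its paralogue Pfkfb3 fell to 8.26 and 10.8 CPM from 68.3 to 99.4 CPM (median 74.9) (-2.98 ± 0.16). Slc16a1, the monocarboxylate transporter MCT1, rose (1.55 ± 0.18). Muscle-type phosphofructokinase Pfkm fell (-2.58 ± 0.18), and platelet-type Pfkp stayed under the fold threshold (0.77 ± 0.11). The neuronal glucose transporter Slc2a3 fell (-2.67 ± 0.21), and the glucose transporter Slc2a1 (-0.47 ± 0.15) and hexokinase Hk2 (0.76 ± 0.25) were not called. With offsets for length and GC content 5 genes of the list were called higher, with Hk2 at 1.62 among them. Gapdh, often used as a reference gene, was lower, at 67.7 and 96.1 CPM against 160.4 to 279 CPM (median 179) (-1.27 ± 0.24), and its reads can be shared with many pseudogenes.

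**Figure D4:**
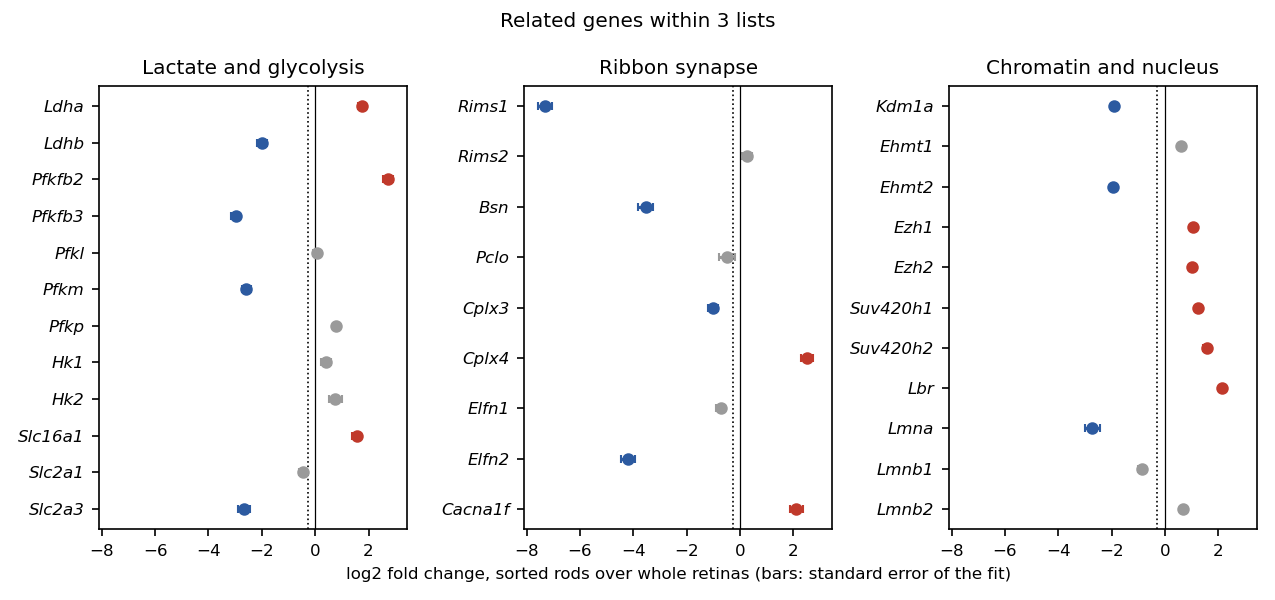
Log2 fold change (sorted rods over whole retinas) for related genes of 3 lists, red called higher, blue called lower and grey not called. Bars, labelled standard error of the fit, show the approximate error derived from the F statistic. Ldha and Ldhb, Pfkfb2 and Pfkfb3, Cplx4 and Cplx3 lie on opposite sides of 0, and Ehmt2 and Kdm1a lie below it.

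The other libraries of the series come from mice given inhibitors of chromatin enzymes, so the genes of those enzymes are given here. Of 25 genes for chromatin enzymes and nuclear architecture, 6 were called higher and 7 lower, with a median of -0.0185. Kdm1a, encoding the demethylase LSD1, had 29.6 and 23.5 CPM in rods and a lowest of 97.3, a median of 99.4 and a highest of 105 CPM in retinas, well apart (-1.92 ± 0.0847, adjusted p = 4.65e-12). Its corepressor partner Rcor1 was lower too (-1.67 ± 0.13). Ehmt2, encoding the H3K9 methyltransferase G9a, had 54.8 and 43.4 CPM against 179 to 199 CPM (median 189) (-1.96 ± 0.0929), while its partner Ehmt1 stayed under the fold threshold (0.60 ± 0.0731). With offsets for length and GC content Ehmt2 stood at -0.50 and was no longer called, and Ehmt1 was called at 1.32. Ezh2 and Ezh1, the alternative methyltransferases of Polycomb complex 2, were both higher (1.03 ± 0.14 and 1.04 ± 0.0784). With the same offsets Ezh2 stood at 0.12 and was not called. Neither Ezh2 nor Ezh1 was called without scaling factors (0.92 each), without a filter on low counts (0.93 and 0.95) or with at least 10 counts in every library (0.86 each). Ezh2 was also not called with a replicate block or without the Romidepsin-experiment retinas (0.98 each). Suz12, another subunit, was lower (-1.05 ± 0.16), but was not called without the UNC1999-experiment retinas (-0.97). Hdac1 and Hdac3, histone deacetylases, stayed under the fold threshold at 0.62 ± 0.14 and 0.75 ± 0.10. Without rod library 1, Ezh2 stood at 0.71, and without rod library 2, Ezh1 stood at 0.92 and Suz12 at -0.90, none of them called.

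Nuclear architecture in rods of nocturnal mammals is inverted, with heterochromatin in the centre. The values below are levels of RNA and not of protein, and their relation to that arrangement was not tested. Lbr, the lamin B receptor, had 104 and 91.9 CPM in rods and a lowest of 20.6, a median of 22.0 and a highest of 24.2 CPM in retinas (2.14 ± 0.0662, adjusted p = 1.12e-13). Lmna, encoding lamins A and C, had 3.92 and 5.36 CPM against 24.9 to 43.4 CPM (median 27.1) (-2.72 ± 0.29). The H4K20 methyltransferase genes Suv420h1 and Suv420h2 were both higher (1.24 ± 0.0842 and 1.57 ± 0.14). Cbx3, a heterochromatin protein, was lower (-1.32 ± 0.28).

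Of 27 immediate-early genes, 3 were called higher and 17 lower (median -1.67). Their summed level lay inside the retina range, at 1023 and 1215 CPM in rods against 763 to 1247 CPM (median 881) in retinas. Fos had 25.6 and 20.1 CPM against 37.6 to 100.2 CPM (median 51.2) (-1.39 ± 0.33), Egr1 56.3 and 71.5 CPM against 94.5 to 202 CPM (median 144) (-1.11 ± 0.22) and Jund 2.52 and 5.23 CPM against 80.6 to 131 CPM (median 114) (-4.77 ± 0.26). Jun and Junb overlapped the retinas and were not called. The 3 that rose were Btg2 (505 and 537 CPM against 99.8 to 137 CPM (median 116), 2.18 ± 0.0841), Ier3 (1.79 ± 0.29) and Ier2 (1.31 ± 0.14). Of 10 injury signals, 2 were called higher and 6 lower, and their sum of 393 and 379 CPM lay inside the retina range of 302 to 589.7 CPM. Edn2, an endothelin made by stressed photoreceptors, had 173 and 109 CPM against 26.5 to 95.1 CPM (median 52.9) (1.48 ± 0.34), and Gadd45a had 69.9 and 105 CPM against 16.0 to 27.5 CPM (median 19.6) (2.14 ± 0.16). Lif, the cytokine that Müller glia release, had no count in rods and 2.63 to 39.1 CPM (median 4.62) in retinas, at least 72.4-fold lower, and its receptor subunit Il6st was at 65.3 and 68.7 CPM against 166 to 259 CPM (median 207) (-1.64 ± 0.18). Without rod library 1, Edn2 stood at 1.08 and Egr1 at -0.99 (-0.96 with offsets for length and GC content), and without library 2, Ier2 stood at 0.96, none of them called, and the call of Lif was lost too.

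Of 25 cell death genes, 14 were called lower and 2 higher (median -2.52, or -2.36 with genes at 0 set to their bound). They summed to 508 and 616 CPM in rods, below every retina (672 to 858 CPM). Bak1, a pore-forming effector of mitochondrial apoptosis, was at 0.280 and 0.323 CPM against a median of 21.0 CPM (-6.25 ± 0.46), while its paralogue Bax overlapped the retinas (38.9 and 49.6 CPM against 28.6 to 44.0 CPM (median 34.2), 0.33 ± 0.13, or 1.25 and called with offsets for length and GC content). The calpains Capn1 and Capn2, calcium-activated proteases, fell to 0.140 and 0.517 and 3.92 and 2.39 CPM from medians of 24.9 and 57.1 CPM (-5.99 ± 0.29 and -4.36 ± 0.26). Pycard, Nlrp3, Mlkl, Ripk3, Casp12 and Pmaip1 had no count in either rod library, but their retina medians were also low, from 0.370 CPM for Ripk3 to 3.61 CPM for Pycard, the inflammasome adaptor. Mcl1, which blocks BAK, fell (-2.52 ± 0.22). The 2 that rose were Bcl2l11, encoding the sensor BIM, at 50.1 and 41.1 CPM against 17.9 to 22.5 CPM (median 19.9) (1.18 ± 0.10), and Aifm1, the mitochondrial flavoprotein AIF, at 51.0 and 77.8 CPM against 27.3 to 32.0 CPM (median 28.9) (1.15 ± 0.10). Apaf1 (0.39 ± 0.12) and Parp1 (0.41 ± 0.12) were not called. Without rod library 1 Bcl2l11 stood at 1.00, and without library 2 Aifm1 stood at 0.77 (0.66 with offsets for length and GC content, and 0.96 with at least 10 counts in every library), none of them called, and the call of Ripk3 was lost without either.

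The genes with the largest changes, taken by a rule on fold, level, range and lack of overlap with any other annotated gene, were of different kinds in the 2 directions. Of the 12 highest, 5 are annotated as lincRNA: Gm16854 (chromosome 6, 18794220 to 18797360 on NCBIM37, 27.7 and 16.1 CPM against at most 0.0669 CPM), Gm16707 (chromosome 9, 119349396 to 119353948, 25.1 and 16.8 CPM), 4632427E13Rik (chromosome 7, 99886168 to 99889978, 188 and 112 CPM), 4831440E17Rik and Gm13830. The noncoding transcript 9130020K20Rik (69.1 and 26.2 CPM against 0.115 to 0.887 CPM (median 0.539)) and the pseudogene AY036118 (34.7 and 30.9 CPM against 0 to 0.934 CPM (median 0.405)) were also among them. Protein-coding genes were Wdr89 (113 and 99.4 CPM against 4.02 to 6.68 CPM (median 5.37), 4.32 ± 0.13), Wdr27 (4.15 ± 0.23), Gm5460 (4.19 ± 0.22), Tspan10 (3.79 ± 0.27) and the Y-linked Eif2s3y. None of these 12 is in the lists of rod function.

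Eif2s3y, carried by males only, had 234 and 266 CPM in rods against 0 to 39.7 CPM (median 0) in retinas (4.24 ± 1.33), and 5 of 12 retinas had more than the floor of 3 counts. Its call was lost under the likelihood ratio test (4.23), DESeq2 (4.26) and offsets for length and GC content (2.77). Ddx3y had 162 and 207 CPM against at most 67.6 CPM in a retina and was not called (adjusted p = 0.0796). Xist, transcribed from the inactive X of females, had 28.0 and 0 CPM in rods and ranged from 0.104 to 1112 CPM in retinas. For both Y-linked genes, each rod library exceeds every retina. The part of sex in other results was not tested.

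The 12 genes with the largest falls had no count in either rod library, so bounds are given against the same floor of 3 counts over both rod libraries (0.133 CPM). Agap2 (chromosome 10, 126515963 to 126530225), a GTPase regulator of neurons, had 128 to 167 CPM (median 138) in retinas and was at least 1083-fold lower in rods, and Ebf3 (chromosome 7, 144385356 to 144506128), a transcription factor, had 63.4 to 83.2 CPM (median 67.7) in retinas and was at least 536-fold lower. The noncoding RNA Miat (chromosome 5, 112642248 to 112657968) had 34.4 to 77.6 CPM (median 48.2) in retinas and was at least 374-fold lower. Cgnl1, Zcchc24, Lgi2, Phyhip and Hspg2 were at least 358-, 301-, 298-, 266- and 238-fold lower. Kndc1, 9930013L23Rik and Pvalb, the calcium buffer parvalbumin, were at least 232-, 218- and 179-fold lower, and 1 of 2 neighbouring genes that share the symbol 6030419C18Rik was at least 217-fold lower. All 12 were present in every retina.

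The kind of gene moved with the comparison. Of 762 lincRNA genes tested, 57.2% were called higher and 20.7% lower, and of 15352 protein-coding genes 21.9% and 40.9%. Of 6405 genes that overlap another gene on the opposite strand, 33.4% were called higher and 32.6% lower, against 20.8% and 41.7% of the 11354 that overlap none. Such overlaps are also held by 17 of 39 cilium genes, 11 of 24 ribbon synapse genes and 6 of 15 photoreceptor transcription factors. Among genes with a coding transcript, cut into 4 equal classes by transcript GC content, those of lowest GC content were called higher in 34.9% and lower in 28.5%, and those of highest GC content in 12.8% and 53.6%. In the class of longest transcripts, cut likewise, 15% were called higher and 50.3% lower. With offsets for length and GC content, the phototransduction activation list had 7 of 9 called higher with a median of 1.25, and the ganglion cell list had 15 of 15 called lower.

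**Figure D5:**
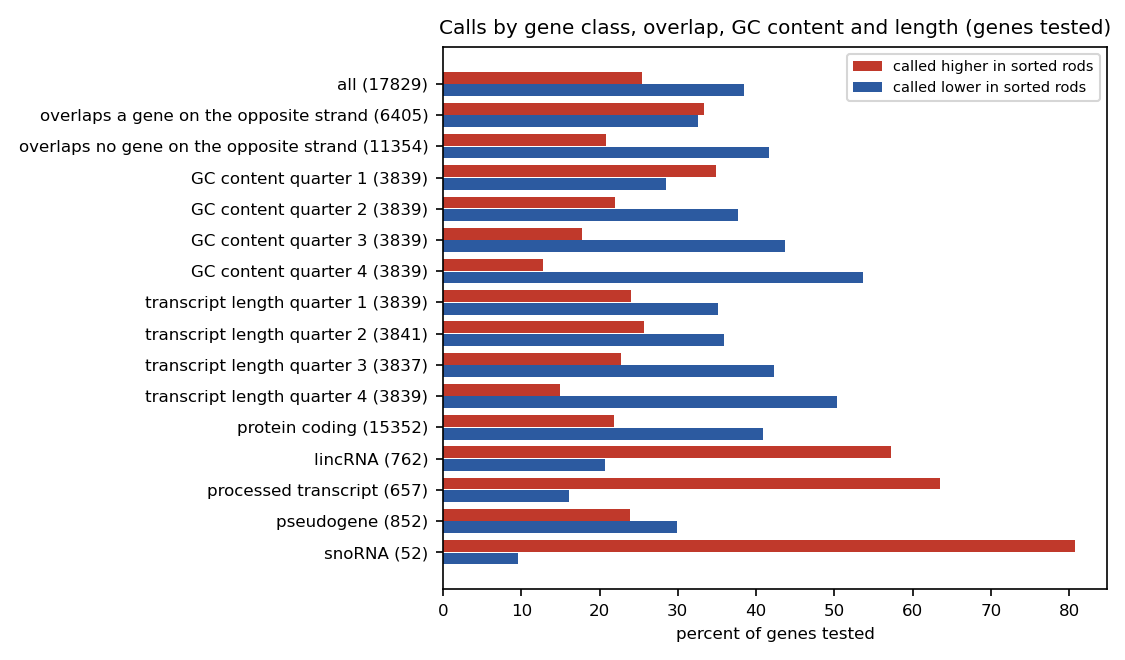
Share of tested genes called higher (red) and lower (blue) in sorted rods, by overlap on the opposite strand, by 4 equal classes of transcript GC content and of length, and by annotated class, with the number of genes tested in parentheses. The share called lower rises from 28.5% to 53.6% from the lowest to the highest GC class, and lincRNA and snoRNA genes are called higher in 57.2% and 80.8%.

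Of 12 mitochondrially encoded mRNAs tested, 11 were called lower and 1 higher. mt-Co1, a subunit of cytochrome oxidase, had 769 and 363 CPM against 5691 to 7595 CPM (median 6766) (-3.55 ± 0.27), and mt-Cytb had 985 and 599 CPM against 3372 to 4712 CPM (median 4091) (-2.37 ± 0.20). The 1 that was higher, mt-Nd6, is the only mRNA on the light strand, at 148 and 69.3 CPM against 10.1 to 20.3 CPM (median 14.1) (2.88 ± 0.21). With offsets for length and GC content it stood at 0.39 and was not called. Reads from a gene and from its antisense partner cannot be told apart where the counting does not use strand, and the setting used is not given in the sources used here. Malat1, an abundant nuclear RNA, had 5638 and 3357 CPM against 144 to 551 CPM (median 378) (3.67 ± 0.34), while Meg3 (20.3 and 17.7 CPM against 339.6 to 821 CPM (median 563)), Rian and Snhg11 were lower (-4.88, -7.58 and -3.23). Neat1 was not called (0.48 ± 0.46). Cytosolic ribosomal protein genes, many of which share reads with pseudogenes, were called lower in 74 of 80 cases and higher in none (median -2.08), and nuclear genes of oxidative phosphorylation in 19 of 86, with 6 higher (median -0.33). With offsets for length and GC content, 41 of 85 nuclear genes of oxidative phosphorylation were called lower (median -0.98), against 19 of the same genes without offsets.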

How the data were processed

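Gene counts of 14 libraries, 2 of sorted control rods and 12 of control retinas, were used as deposited. The authors trimmed reads with BBDuk, aligned them to NCBIM37 with HISAT2 2.2.1 and counted them per Ensembl gene with HTSeq 0.11.2. Whether counting used strand is not given in the sources used here, and amplified full-length and stranded libraries can differ in antisense reads, GC content and length. Groups came from the labels. Counts were filtered with filterByExpr (17829 of 37991 genes kept), scaled with TMM (factors 0.891 to 1.06) and tested with edgeR 4.0.16 (glmQLFit, glmQLFTest, R 4.3.3). No covariates were used, since no retina shares an experiment with the rods and the methods describe the SMART-Seq kit for the rods only. The study's likelihood ratio test was an alternative. P-values were adjusted with Benjamini-Hochberg over all genes tested. A count of 0 allows up to 3 counts, which is 0.133 CPM over both rod libraries, for counting error only. Replicates differed beyond sampling noise, with a lowest chi-square per gene of 3.89 over 14 pairs. Transcript length, GC content and overlaps came from the annotation. The members and gene lists were chosen with earlier results of these data known. Named genes are list members and, in each direction, the 12 with the largest fold among called genes with groups apart, at least 20 CPM in the higher group and no overlapping gene. The fits were tested on simulated data in which 200 of 17829 genes were changed, up or down. Of these, 188 were recovered, and 4 unchanged genes were called. Far fewer genes changed there than are called here, so that test does not show how the fits and the TMM scaling behave in this comparison. Alternatives covered DESeq2 1.42.0, scaling, filters, thresholds, each library and experiment left out, retinas of each library-name prefix alone, replicate block, length and GC content offsets, and genes without overlap. Treated libraries were left out, and some genes of the lists are not reported here by name.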

Additional observations from a re-analysis of the deposited data

Results flagged for a closer look

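In the 4 control retinas of the DZNep experiment, 2 of the 33 summed gene lists held a library that stands apart from the other 3 by Dixon's test at the 95% level, which chance alone passes in about 1 of 20 groups. Ganglion cell markers summed to 2187 CPM in 1 of these retinas and to 2739 to 2820 CPM in the others. Blood genes summed to 110.2 CPM in 1 of them and to 37.0 to 45.5 CPM in the others. Both values lie far above the sums in sorted rods.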

How the results depend on the processing

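The genes called higher in sorted rods numbered 4527, and 4461 to 4568 over fits that each left out 1 retina library. The genes called lower in sorted rods numbered 6849, and 6774 to 6907 over the same fits. Where a rod library was left out, the lone rod library left was assumed to vary like the retinas, so counts of those fits are not given. Counts moved by over 1.5 times with at least 10 counts asked in every library (2606 higher, 3487 lower, with 11718 genes tested), without a fold threshold (6831 higher), with length and GC content offsets (2983 higher, with 15356 tested, of which 3359 were called higher without offsets) and over genes overlapping no other gene (1991 higher and 4204 lower, with 9986 tested). Replicate numbers are shared by rods and retinas only as numbers, and a replicate block gave 4501 higher and 6861 lower, with correlations of deviations of 0.032 at most in size. The median of histone cluster genes turned to -0.70 with no filter on low counts and lay at -0.13 to 0.38 when 1 library was left out, and that of nuclear long noncoding RNAs turned to 0.28 with at least 10 counts in every library. Genes not called that changed sign were Arr3 (0.18 with the replicate block, 0.23 with 5 groups in 1 fit, 0.13 with only the H-50 retinas, which are those of the UNC1999 experiment, 0.26 without the DZNep-experiment retinas, and -0.16 to 0.021 with 1 library left out), Pde6c (-0.10 with at least 10 counts, -0.46 with offsets, -0.0092 with no filter, -0.046 with no scaling factors, and -0.30 to 0.32 with 1 library left out), Cabp5 (-1.48 to 0.21), Car2 (-0.69 to 0.15), and Pecam1 (0.29 with only the H-50 retinas, and -1.17 to 0.022 with 1 library left out). With only the H-50 retinas Gjd2 stood at 0.0040 and Pclo at 0.16, and without the DZNep-experiment retinas Gjd2 stood at 0.014. With length and GC content offsets Esrrb stood at 0.29, Rbp3 at 0.93 and Whrn, called lower otherwise, at 0.55. The causes of these changes were not tested, beyond the fewer genes tested where stated. With 2 rod libraries the spread among rods rests on 1 pair, and genes at 0 there are known only below 0.133 CPM.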

Other observations

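Antigen presentation genes were lower in sorted rods in 15 of 17 cases, with none higher. B2m, the light chain of class I molecules, had 8.26 and 15.5 CPM against 73.9 to 486 CPM (median 193) (-4.19 ± 0.75), and Cd74, the class II invariant chain, had 0.560 and 3.17 CPM against 3.37 to 55.2 CPM (median 17.6) (-3.33 ± 1.04). H2-D1, a class I heavy chain, kept 67.1 and 123 CPM against 129.5 to 416 CPM (median 231) (-1.33 ± 0.40). Without rod library 1, Cd74 stood at -2.80 and H2-D1 at -0.998, neither of them called. All 23 microglia markers were lower in the same libraries, and their part in the class II values was not tested. Of 20 genes of cholesterol synthesis and uptake, 2 were called higher and 4 lower. The pathway enzymes Hsd17b7 and Sc4mol rose (1.29 ± 0.15 and 1.22 ± 0.15). With offsets for length and GC content Sc4mol stood at 0.26 and was not called. Srebf2, the regulator of the pathway, had 29.8 and 42.0 CPM against 225 to 285 CPM (median 248) and was lower (-2.80 ± 0.15).

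Of 12 heat shock genes, 2 were called higher and 3 lower, and their sum of 1912 and 3326 CPM compares with 2252 to 3934 CPM in retinas. Hspa1a, the inducible HSP70, had 49.03 and 79.9 CPM against 9.67 to 34.4 CPM (median 14.9) (1.90 ± 0.32), and its near copy Hspa1b had 29.1 and 60.0 CPM against 6.77 to 30.0 CPM (median 12.3) (1.66 ± 0.38), so reads of the pair may be split. Without rod library 2, Hspa1b stood at 1.01 and was not called. Cryab, a small heat shock protein, fell to 2.94 and 6.91 CPM from 66.6 to 146 CPM (median 89.8) (-4.17 ± 0.45). Of 23 histone cluster genes, 7 were called higher and 7 lower. Hist1h1c, a linker histone gene, had 79.7 and 146 CPM against 17.0 to 47.3 CPM (median 28.7) (1.98 ± 0.31), and Hist3h2ba had 6.44 and 9.30 CPM against 31.3 to 54.0 CPM (median 44.7) (-2.42 ± 0.24). Most histone genes were under 10 CPM in every library.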
